A study of Mus musculus with 6 samples.

Results

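The genes described here encode the proteasome, the large protease complex that degrades ubiquitin-tagged proteins. They were taken by symbol, as every gene whose array probe carries 1 gene symbol beginning with Psma, Psmb, Psmc, Psmd, Psme, Psmf or Psmg and a digit. The rule took 48 of the 18069 genes with such a probe, on 54 probes. Of these, 46 encode proteasome subunits, activators, assembly chaperones or an inhibitor. The other 2, Psmc3ip and Psme3ip1, are named after a proteasome gene whose product they bind and were kept apart. Psmb10 has no value here because its probe carries a second gene symbol, and Psme4 was not analysed here.

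Total RNA of early-passage mouse embryonic fibroblasts was measured on 1-colour CodeLink whole-genome arrays, 1 culture per array. There were 3 Ing1-deficient cultures, named C4, C3 and B1, in which a gene trap cassette inserted into the Ing1 locus inactivates it, and 3 cultures of wild-type littermates, named H2, H3 and I2. Ing1 encodes a chromatin reader and candidate tumour suppressor. Each culture came from its own embryo, the labels do not say which cultures share a litter, and no leading letter of a culture name holds both genotypes.

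The proteasome has a barrel-shaped core particle, with outer rings of alpha subunits and inner rings of beta subunits, and a regulatory particle that caps it. Psmb5, Psmb6 and Psmb7 encode the catalytic beta subunits, which Psmb8, Psmb9 and Psmb10 replace in the immunoproteasome, a form induced by interferon-gamma in many cells, fibroblasts included. In the regulatory particle, ATPase subunits (Psmc genes) unfold the substrate and non-ATPase subunits (most Psmd genes) bind and remove its ubiquitin. The transcription factor Nfe2l1 is known to raise proteasome genes together when the proteasome is inhibited, through antioxidant response elements in their promoters.

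Promoter stretches are shown for the 3 genes that passed the test and for the 2 catalytic subunit genes whose stretch holds a searched motif, because the genes are known to be controlled together through such elements. Each is the 120 bases before the annotated RefSeq transcription start on mouse assembly GRCm38.p6, read 5′ to 3′ on the gene's strand. Capitals mark the antioxidant response element core TGACNNNGC in Psmb5 and Psmb6, and the other stretches hold none of the searched motifs.
Psmd6 (chr14:14120946-14121065, minus strand): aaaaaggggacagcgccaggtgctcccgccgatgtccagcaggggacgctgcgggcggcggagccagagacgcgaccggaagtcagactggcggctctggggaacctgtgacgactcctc
Psmc4 (chr7:28050093-28050212, minus strand): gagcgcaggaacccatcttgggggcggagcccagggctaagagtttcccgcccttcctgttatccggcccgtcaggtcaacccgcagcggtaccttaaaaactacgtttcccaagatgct
Psmc5 (chr11:106256065-106256184, plus strand): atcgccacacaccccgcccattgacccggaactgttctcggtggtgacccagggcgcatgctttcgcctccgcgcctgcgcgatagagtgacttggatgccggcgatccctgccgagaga
Psmb5 (chr14:54617996-54618115, minus strand): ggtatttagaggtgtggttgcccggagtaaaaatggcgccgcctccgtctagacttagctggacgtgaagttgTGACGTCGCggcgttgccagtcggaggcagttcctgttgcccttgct
Psmb6 (chr11:70525237-70525356, plus strand): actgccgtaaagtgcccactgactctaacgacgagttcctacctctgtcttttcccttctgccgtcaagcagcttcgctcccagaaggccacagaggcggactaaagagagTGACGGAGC

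Both strands were searched in windows of 250 bases before to 50 after each start, with 41 windows for the 38 proteasome genes that matched the RefSeq table and 32851 windows in all. The antioxidant response element core TGACNNNGC lay in 5 proteasome windows, or 12.2%, against 12.39% of all windows, in Psmb5, Psmb6, Psmc6, Psmd9 and Psmd12. CCAAT, the box bound by NF-Y, lay in 34.15% of the proteasome windows and 37.41% of all windows. The interferon-stimulated response element core GAAANNGAA lay in 7 proteasome windows, or 17.07%, against 8.56% of all windows. Those windows belonged to Psmb3, Psmb4, Psmc2, Psmd4, Psmd9, Psme1 and Psmg4. Windows of different starts of a gene can overlap, and a match is a description of the letters only.

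Signal is given as the deposited normalized intensity, in which 1 unit is the median of an array's transcript probes, and levels of different probes were not compared. Good quality flags covered 55.5% to 62.1% of the transcript probes per array. Ing1, the targeted gene, had 1.38, 0.930 and 1.39 units in C4, C3 and B1, against 11.7, 11.4 and 11.1 units in H2, H3 and I2. Its log2 difference was −3.23 ± 0.19 (SE, limma adjusted p = 0.000287). All 8 fibroblast markers were tested and 1, Thy1, was higher in deficient cells (0.89 ± 0.22, limma adjusted p = 0.0492). The list median was 0.13, and the summed signal was 918 to 987 units in deficient and 790 to 1020 units in wild-type arrays. Pdgfra gave 0.93 ± 0.32 (adjusted p = 0.108) on its brighter probe. Its second probe went the other way, at −0.70 ± 0.29 (adjusted p = 0.170). Of the macrophage and leukocyte markers, 9 of 13 were tested, with a median of 1.20. Of these, 3 were higher in deficient cells (C1qa, C1qb and Mrc1), against 4.94% of all tested probes. Mrc1 and Laptm5 were tested only through their flags in the deficient arrays, each having a good flag on 1 wild-type array. The list's summed signal was 53.6, 161 and 85.2 units in C4, C3 and B1, against 55.2, 36.3 and 24.6 units in H2, H3 and I2, with Ptprc flagged low on all 6 arrays. Adgre1, also untested, had 0.614, 1.27 and 0.969 units in C4, C3 and B1, against 0.159, 0.489 and 0.109 units in H2, H3 and I2. Lyz2 made up much of the sum, with 25.2, 80.8 and 39.6 units in C4, C3 and B1, against 27.1, 19.7 and 12.4 units in H2, H3 and I2. Among the tested markers, all deficient arrays lay above all wild-type arrays for Aif1, C1qa, C1qb, C1qc and Mrc1. The groups overlapped for Lyz2, Tyrobp, Laptm5 and Cd14, and 20.0% of all tested probes had deficient arrays above. Of the other markers, 2 of 5 endothelial, 3 of 5 epithelial and 0 of 5 erythroid genes were tested, and none of those tested passed.

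Most proteasome genes had a somewhat higher signal in Ing1-deficient than in wild-type fibroblasts, by less than 1.5-fold in nearly every case. Of the 46 genes, 42 were tested, and all 42 had a good flag on all 6 arrays. Psmd6, Psmc5 and Psmc4, all of the regulatory particle, rose past the adjusted threshold of 0.05, none fell, and 39 did not pass. That is 3 of 42 higher, where 4.94% of all 19575 tested probes were higher and 6.57% passed in either direction, so the share of calls was near the background. The difference was above zero for 36 of 42 genes, with a median of 0.31 (range −0.30 to 1.03), whereas 51.9% of all tested probes were above zero, with a median of 0.02. In all, 38 genes differed by less than 1.5-fold and 1 by more than 2-fold.

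At an unadjusted p under 0.05, 18 of the 42 genes were higher and 0 lower (limma), against 17.0% and 9.21% of all tested probes. All 3 deficient arrays lay above all 3 wild-type arrays for 20 of the 42 genes, against 20.0% of all tested probes, and the reverse held for 0 genes, against 11.2%. In whole cultures, fewer cells of a type and less RNA per cell cannot be told apart.

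The shift was uneven over the cultures. The median deviation of the 42 genes from their own means over the 6 arrays was, on the log2 scale, 0.37, 0.01 and 0.09 for C4, C3 and B1, against −0.04, −0.28 and −0.14 for H2, H3 and I2. C4 held the highest value of 33 genes, and a wild-type array held the lowest value of 35, H3 that of 20. The macrophage marker sum, by contrast, was highest in C3, where the proteasome genes lay near their means, and its part in the result was not tested.

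Bright probes as a whole moved in the same direction as the proteasome genes on C4 and H3, though less, and in the opposite direction on H2. The 3928 tested probes with a mean above 10 units, a limit chosen after the values were seen, had median deviations of 0.13, −0.00 and 0.02 for C4, C3 and B1, against 0.06, −0.16 and −0.03 for H2, H3 and I2. Their median difference was 0.09 and 61.8% were above zero, while the 32 proteasome genes above the same limit had a median of 0.31 with 29 above zero. Quantile normalization put the median of the bright probes at −0.02 and that of the 42 proteasome genes at 0.20, with 31 of 42 above zero. Without C4 the proteasome median was 0.20, with 33 of 42 above zero.

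**Figure D1:**
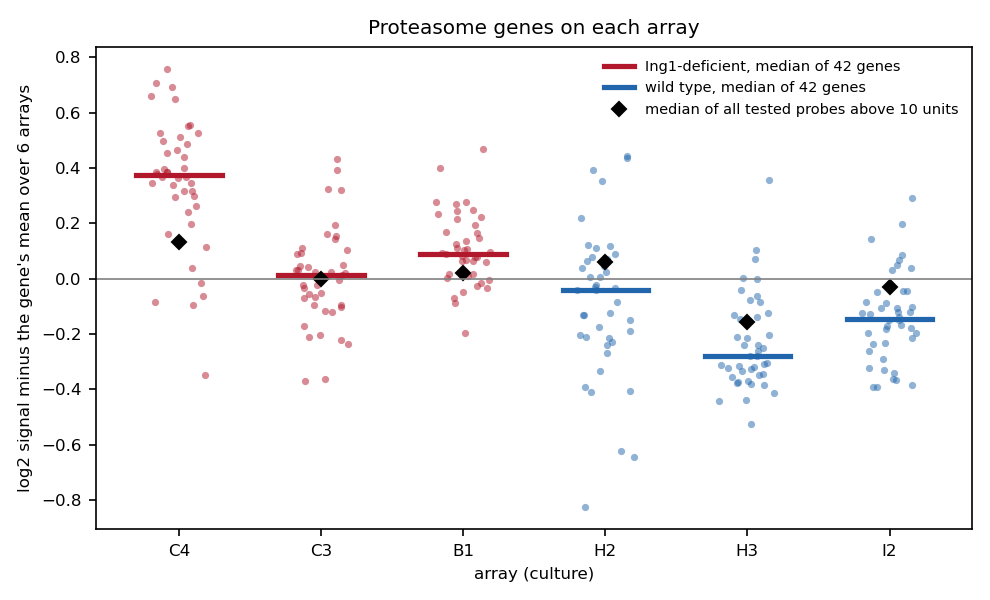
Deviation of each of the 42 tested proteasome genes from its own mean over the 6 arrays (y axis, log2) on each array (x axis), with deficient arrays in red and wild-type arrays in blue. Coloured lines are medians over the genes, at 0.37 in C4 and −0.28 in H3, and black diamonds are medians over the 3928 tested probes above 10 units, which lie closer to zero on those arrays.

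In the alpha ring, which gates entry to the core, all 7 genes had differences above zero and none passed the adjusted threshold. The median was 0.31 (range 0.02 to 0.46), with 3 genes at an unadjusted p under 0.05 and 4 whose groups did not overlap, against 17.0% and 20.0% of all tested probes. Without C4 the alpha ring median was 0.19. Psma4 had the highest difference and the lowest p of the ring. It had 41.96, 35.4 and 34.9 units in C4, C3 and B1, against 27.4, 26.2 and 27.7 units in H2, H3 and I2. All deficient arrays lay above all wild-type arrays, and the difference was 0.46 ± 0.15 (limma adjusted p = 0.0962). Psma1 had the lowest difference, 0.02 ± 0.14 (adjusted p = 0.939), with overlapping groups. The testis-enriched alpha subunit gene Psma8 lay close to the floor of 0.57 units, with 1.16, 0.817 and 0.876 units in C4, C3 and B1, against 0.733, 0.694 and 0.639 units in H2, H3 and I2 (difference 0.45 ± 0.18, adjusted p = 0.147). The Psma8 difference was 0.01 with the floor doubled to 1.14 units and 0.12 after normexp background correction.

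In the constitutive beta ring, 6 of 7 genes were above zero and none passed, with a median of 0.27 (range −0.10 to 0.49). Without C4 the beta ring median was 0.08, and with a gene's probes averaged it was 0.16. Over both rings the 14 genes had a median of 0.28, with 13 above zero, 5 at an unadjusted p under 0.05 and 7 whose groups did not overlap. Of all tested probes, 51.9% were above zero and 17.0% were higher at an unadjusted p under 0.05 (limma). All deficient arrays lay above all wild-type arrays for 20.0%. The structural subunit gene Psmb2 had the lowest p of the beta ring. It had 103, 84.5 and 94.1 units in C4, C3 and B1, against 70.1, 66.5 and 64.6 units in H2, H3 and I2. Every deficient array was above every wild-type array, with a difference of 0.48 ± 0.15 (limma adjusted p = 0.0863). Psmb1, also structural, was the only beta ring gene below zero, at −0.10 ± 0.18 (adjusted p = 0.757), with its highest value, 113 units, in H2. Psmb4 gave 0.27 ± 0.21 (adjusted p = 0.451) on its brighter probe and −0.17 ± 0.22 (adjusted p = 0.671) on its second, so its probes disagreed in sign.

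The catalytic genes did not pass the test. Psmb5, which encodes the chymotrypsin-like subunit, had 88.9, 57.2 and 59.4 units in C4, C3 and B1, against 49.0, 43.8 and 51.1 units in H2, H3 and I2. All deficient arrays lay above all wild-type arrays, and C4 stood above the other deficient arrays. The difference was 0.49 ± 0.20 (95% interval 0.04 to 0.93, limma adjusted p = 0.159).

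Psmb6, which encodes the caspase-like subunit, had 83.4, 69.0 and 71.2 units in C4, C3 and B1, against 68.1, 53.6 and 60.4 units in H2, H3 and I2. Its groups did not overlap either, though C3 and H2 nearly met, and its difference was 0.30 ± 0.16 (95% interval −0.07 to 0.67, limma adjusted p = 0.282). Psmb7, for the trypsin-like subunit, had 53.1, 39.3 and 41.2 units in C4, C3 and B1, against 42.8, 36.1 and 45.2 units in H2, H3 and I2. Those groups overlapped, and the difference was 0.10 ± 0.18 (95% interval −0.30 to 0.50, adjusted p = 0.764).

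Of the immunoproteasome genes only Psmb8, the counterpart of Psmb5, could be tested, and it did not pass. It had 1.87, 2.28 and 2.55 units in C4, C3 and B1, against 2.54, 3.06 and 2.19 units in H2, H3 and I2. The groups overlapped, with C4 the lowest array and H3 the highest, whereas C4 was the highest for 33 of the 42 proteasome genes. The difference was −0.22 ± 0.19 (95% interval −0.64 to 0.21, limma adjusted p = 0.507). Psmb9, the counterpart of Psmb6, had a good flag only in H3. It read 0.126, 0.168 and 0.226 units in C4, C3 and B1, against 0.248, 0.475 and 0.225 units in H2, H3 and I2. All but H3 lay below the 95th percentile of the negative control spots, which was 0.300 to 0.397 units over the arrays. The thymus-restricted beta gene Psmb11 was flagged low on all 6 arrays.

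**Figure D2:**
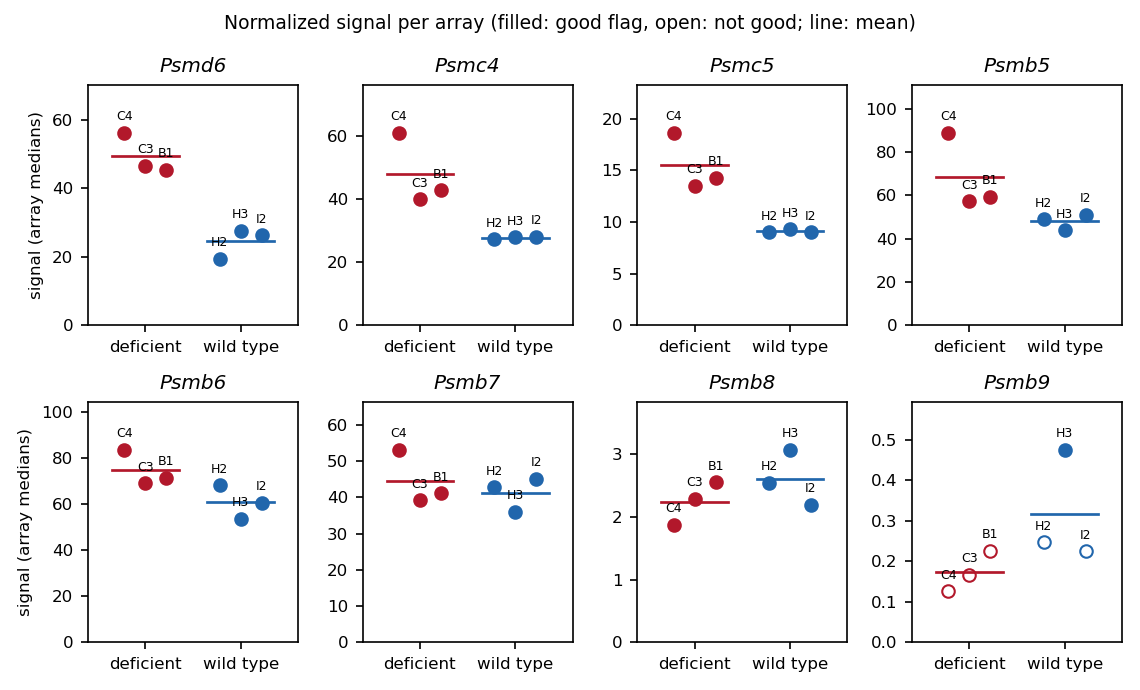
Normalized signal (y axis, in units of each array's median transcript probe, starting at 0) of the 3 genes that passed the test and of the catalytic and immunoproteasome genes, with Ing1-deficient arrays left and wild-type arrays right. Filled points have a good flag, open points do not, and lines are genotype means. Psmd6, Psmc4, Psmc5, Psmb5 and Psmb6 show deficient arrays above all wild-type arrays, and the groups overlap for Psmb7 and Psmb8.

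The regulatory particle held all 3 calls. Of its 17 genes 16 were tested, 13 were above zero, 3 were called higher, 9 had an unadjusted p under 0.05 and 9 had groups that did not overlap, with a median of 0.42. The shares over all tested probes were 51.9% above zero, 4.94% called higher, 17.0% higher at an unadjusted p under 0.05 and 20.0% with deficient arrays above all wild-type arrays. The difference between this median and the 0.28 of the core rings was not tested. Without H3, Psmd6 and Psmc5 still passed, along with Psmd5, but 13.9% of all tested probes passed there too. Leaving out C4, C3, B1, H2 or I2 gave 0 calls by limma, with 10, 17, 12, 14 and 10 of the 42 genes at an unadjusted p under 0.05. Of all tested probes, 0.266%, 1.99%, 0.0255%, 0.123% and 0.0868% passed the adjusted threshold in those fits. The matching shares at an unadjusted p were not computed.

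Among the 6 ATPase genes, 2 rose, 5 were above zero and the median was 0.38 (range −0.30 to 0.76), or 0.24 without C4. Psmc4 had 61.0, 39.8 and 42.7 units in C4, C3 and B1, against 27.2, 27.9 and 28.02 units in H2, H3 and I2. Its groups were clearly apart and C4 stood above the other deficient arrays. The means were 47.8 ± 11.5 units in deficient and 27.7 ± 0.462 units in wild-type cells (SD, n = 3 each), 1.70-fold higher, with a log2 difference of 0.76 ± 0.19 (limma adjusted p = 0.0463). Its second probe was not tested, being flagged low on 4 arrays. Leaving out any 1 array put the adjusted p between 0.0503 and 0.159, with differences of 0.58 to 0.88.

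Psmc5, which like Psmc4 encodes a subunit of the ATPase ring, had 18.7, 13.5 and 14.3 units in C4, C3 and B1, against 8.99, 9.28 and 8.98 units in H2, H3 and I2. The wild-type arrays lay close together and below every deficient array. Means were 15.5 ± 2.77 units in deficient and 9.08 ± 0.172 units in wild-type cells (SD, n = 3 each), 1.69-fold higher, with a difference of 0.76 ± 0.17 (limma adjusted p = 0.0367). Leaving out 1 array gave differences of 0.61 to 0.85 and adjusted p of 0.0349 to 0.146. Psmc6, another ATPase gene, had the lowest difference of all tested proteasome genes. It had 10.04, 7.21 and 8.07 units in C4, C3 and B1, against 12.2, 7.85 and 11.3 units in H2, H3 and I2, with overlapping groups (−0.30 ± 0.21, adjusted p = 0.409).

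Of the 11 non-ATPase genes 10 were tested, 1 rose, 8 were above zero and the median was 0.42 (range −0.13 to 1.03). Psmd6, a subunit of the lid that sits over the ATPase ring, had the largest difference of all tested proteasome genes. It had 56.3, 46.6 and 45.5 units in C4, C3 and B1, against 19.5, 27.7 and 26.3 units in H2, H3 and I2. Every deficient array was well above every wild-type array, and H2 was the lowest. The means were 49.5 ± 5.95 units in deficient and 24.5 ± 4.40 units in wild-type cells (SD, n = 3 each), 2.04-fold higher, with a log2 difference of 1.03 ± 0.19 (limma adjusted p = 0.0271). Leaving out 1 array gave 0.87 to 1.12, with adjusted p of 0.0115 to 0.108. Its direction, like those of Psmc4 and Psmc5, was the same under each scaling tried.

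Psmd14, the lid's deubiquitinase gene, just missed the threshold and is named here after its values were seen. It had 29.4, 29.9 and 27.7 units in C4, C3 and B1, against 18.9, 19.0 and 21.1 units in H2, H3 and I2. The deficient arrays lay close together, well above the wild-type arrays, with C4 in no special place (0.56 ± 0.14, limma adjusted p = 0.0530). Psmd12, another lid gene, gave 0.55 ± 0.16 (adjusted p = 0.0691) on its brighter probe, with groups apart, and −0.08 ± 0.16 (adjusted p = 0.782) on its second. That second probe was dim, at 1.42 to 1.85 units, with a good flag on only 1 wild-type array. Psmd8, also of the lid, had the lowest difference of the class, −0.13 ± 0.22 (adjusted p = 0.759). Its deficient arrays spanned only 45.0 to 46.9 units, inside a wild-type span of 35.4 to 64.9 units. Psmd3, a lid gene, was masked on all 6 arrays and has no value.

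The assembly chaperones help build the rings and the ATPase base and are absent from the finished complex. Of 7 genes 6 were above zero and none passed, with a median of 0.29 (range −0.02 to 0.78), or 0.15 after normexp, and C4 held the highest value of all 7. Psmd5, a chaperone of the ATPase base, had 12.9, 10.5 and 8.43 units in C4, C3 and B1, against 5.10, 7.25 and 6.11 units in H2, H3 and I2. Its groups did not overlap, and its difference of 0.78 ± 0.21 had an adjusted p of 0.0569 (limma). Psmd10, known as gankyrin and also a base chaperone, was at −0.02 ± 0.15 (adjusted p = 0.941).

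None of the 3 alternative activators passed, and their median was 0.25, or 0.13 without C4 and 0.06 when a gene's probes were averaged. Psme1 and Psme2 encode the interferon-inducible activator and Psme3 a nuclear one. Psme3 had the highest difference, 0.46 ± 0.22 (limma adjusted p = 0.229), and Psme2 the lowest, 0.01 ± 0.20 (adjusted p = 0.988), both with overlapping groups. Psme1 gave 0.25 ± 0.16 (adjusted p = 0.369) on its brighter probe, with the groups just apart, and −0.13 ± 0.15 (adjusted p = 0.627) on its second. That second probe was dim, at 1.57 to 1.89 units. The inhibitor gene Psmf1 was not tested, since only C3 and B1 had a good flag. It read 0.461, 0.625 and 0.722 units in C4, C3 and B1, against 0.209, 0.571 and 0.259 units in H2, H3 and I2. Of the genes that share only the symbol, Psmc3ip, a recombination factor gene, was at 0.33 ± 0.29 (adjusted p = 0.509) with overlapping groups, and Psme3ip1 was flagged low on all 6 arrays.

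**Figure D3:**
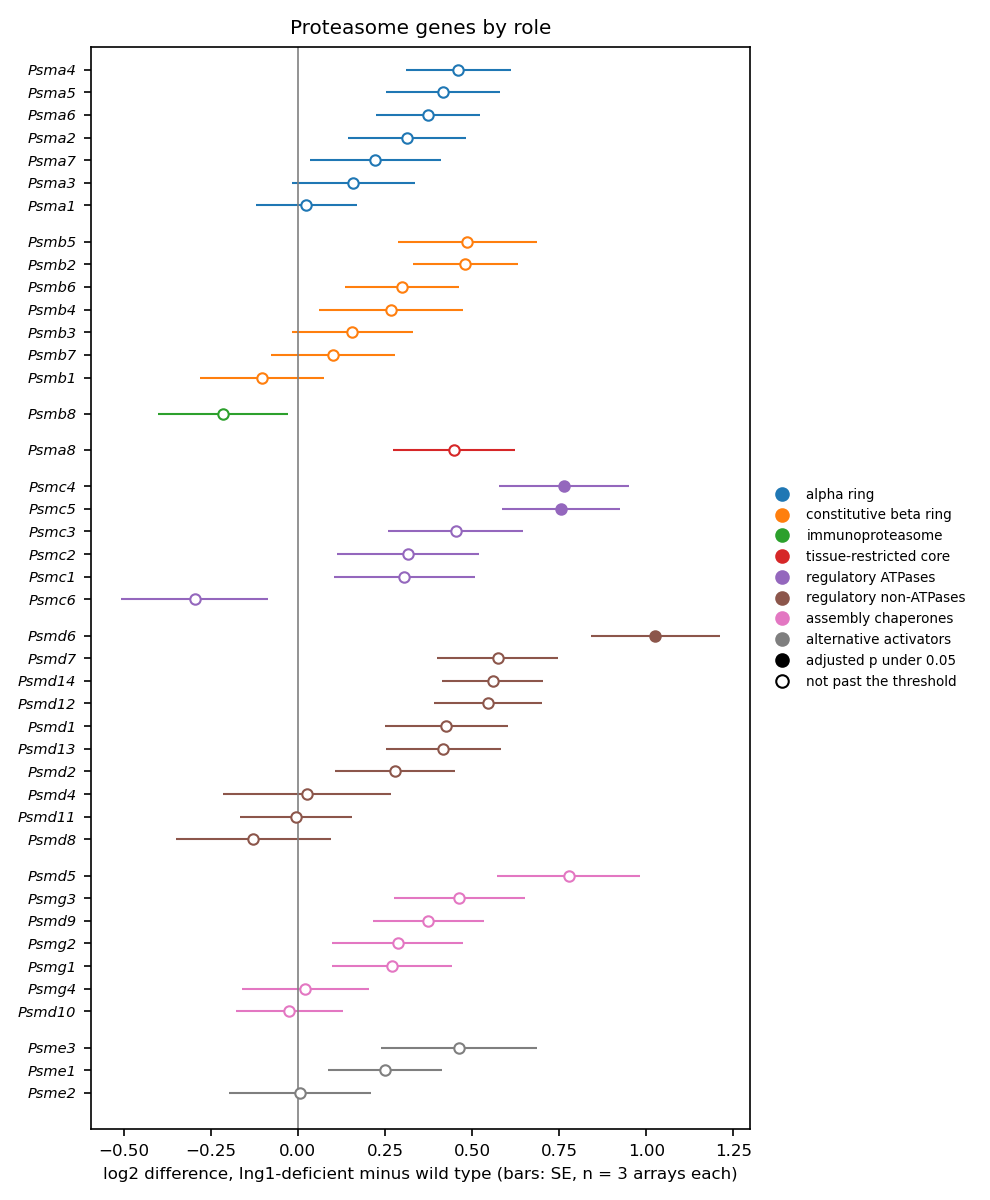
Log2 difference, Ing1-deficient minus wild type (x axis, with SE bars, n = 3 arrays each), of the 42 tested proteasome genes, grouped by role and sorted within a role. Filled points are the 3 genes with an adjusted p under 0.05 (Psmc4, Psmc5 and Psmd6), and 36 of the 42 points lie right of zero.

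Genes that work with the proteasome were drawn from lists of 4 kinds, whose counts stand beside 51.9% above zero, 4.94% called higher, and 17.0% higher and 9.21% lower at an unadjusted p under 0.05 over all tested probes. Of 13 genes for proteasome-bound and assembly proteins, 9 were tested, 6 were above zero, none passed and 4 were higher at an unadjusted p under 0.05, with a median of 0.31. The lowest p of the list belonged to Ube3c, a ubiquitin ligase that binds the proteasome, with groups apart and a difference of 0.63 ± 0.16 (limma adjusted p = 0.0512). Ublcp1, a proteasome phosphatase gene, had 14.8, 12.7 and 11.8 units in C4, C3 and B1, against 5.30, 9.85 and 7.85 units in H2, H3 and I2. Its groups did not overlap either, and H2 was the lowest array (0.81 ± 0.23, adjusted p = 0.0684).

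Of 15 genes for ubiquitin supply and shuttling 6 were tested, 5 were above zero and 1 rose, with a median of 0.24. That gene was Vcp, which encodes the ATPase that extracts ubiquitinated proteins for degradation. Vcp had 99.2, 87.7 and 90.3 units in C4, C3 and B1, against 60.1, 64.8 and 54.8 units in H2, H3 and I2. The groups were well apart, with a difference of 0.63 ± 0.15 (limma adjusted p = 0.0438). Vcp passed without H3 (adjusted p = 0.0305) but not without C4, C3, B1, H2 or I2 (0.0808 to 0.180), with differences of 0.57 to 0.69.

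Of 10 genes for factors that control proteasome transcription 7 were tested, 4 were above zero and 1 rose, with a median of 0.19. Nfyc, which encodes a subunit of the CCAAT-binding factor NF-Y, had 3.58, 2.18 and 2.58 units in C4, C3 and B1, against 1.18, 1.68 and 1.38 units in H2, H3 and I2. All deficient arrays were above all wild-type arrays (0.96 ± 0.22, limma adjusted p = 0.0388). The genes of the other NF-Y subunits, Nfya and Nfyb, were below zero with overlapping groups. Their differences were −0.32 ± 0.22 (limma adjusted p = 0.397) and −0.21 ± 0.18 (adjusted p = 0.505). Nfyc likewise passed without H3 (limma adjusted p = 0.0220) but not without C4, C3, B1, H2 or I2 (0.0513 to 0.145). Its differences with 1 array left out were 0.76 to 1.12. Its probe was dim, and over all alternative settings the difference was 0.40 to 1.12. Nfe2l1, named here after its value was seen because it is the known activator of the proteasome genes, was at −0.25 ± 0.25 (limma adjusted p = 0.574). It had 3.01, 6.24 and 4.39 units in C4, C3 and B1, against 5.26, 4.63 and 5.66 units in H2, H3 and I2. The groups overlapped, and leaving out 1 array gave differences of −0.51 to 0.02.

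Of 19 genes for interferon signalling and antigen processing 14 were tested, 10 were below zero and the median was −0.19. Among those below zero, Ifngr2 (−0.01 ± 0.19) and Canx (−0.03 ± 0.26) lay close to it. The second tested Canx probe was at 0.25 ± 0.18 (limma adjusted p = 0.421). None of the 14 passed by limma, and 4 were lower and 1 higher at an unadjusted p under 0.05, against 9.21% and 17.0% of all tested probes. Of the 14, 10 had a good flag on all 6 arrays, while 2 (Tap1, among the 4 lower, and Stat2) were tested only through their flags in the wild-type arrays and 2 only through those in the deficient arrays. H2-D1, a class I heavy chain gene, had 24.1, 21.0 and 15.5 units in C4, C3 and B1, against 36.1, 27.6 and 30.9 units in H2, H3 and I2. Each deficient array was below each wild-type array, at −0.66 ± 0.20 (limma adjusted p = 0.0816). Tap2, a subunit of the peptide transporter that loads class I molecules, was at −0.72 ± 0.23 (adjusted p = 0.0965). Psmb9, Tap1, Psmb8 and Tap2 are consecutive protein-coding genes on chromosome 17 in the RefSeq table.

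**Figure D4:**
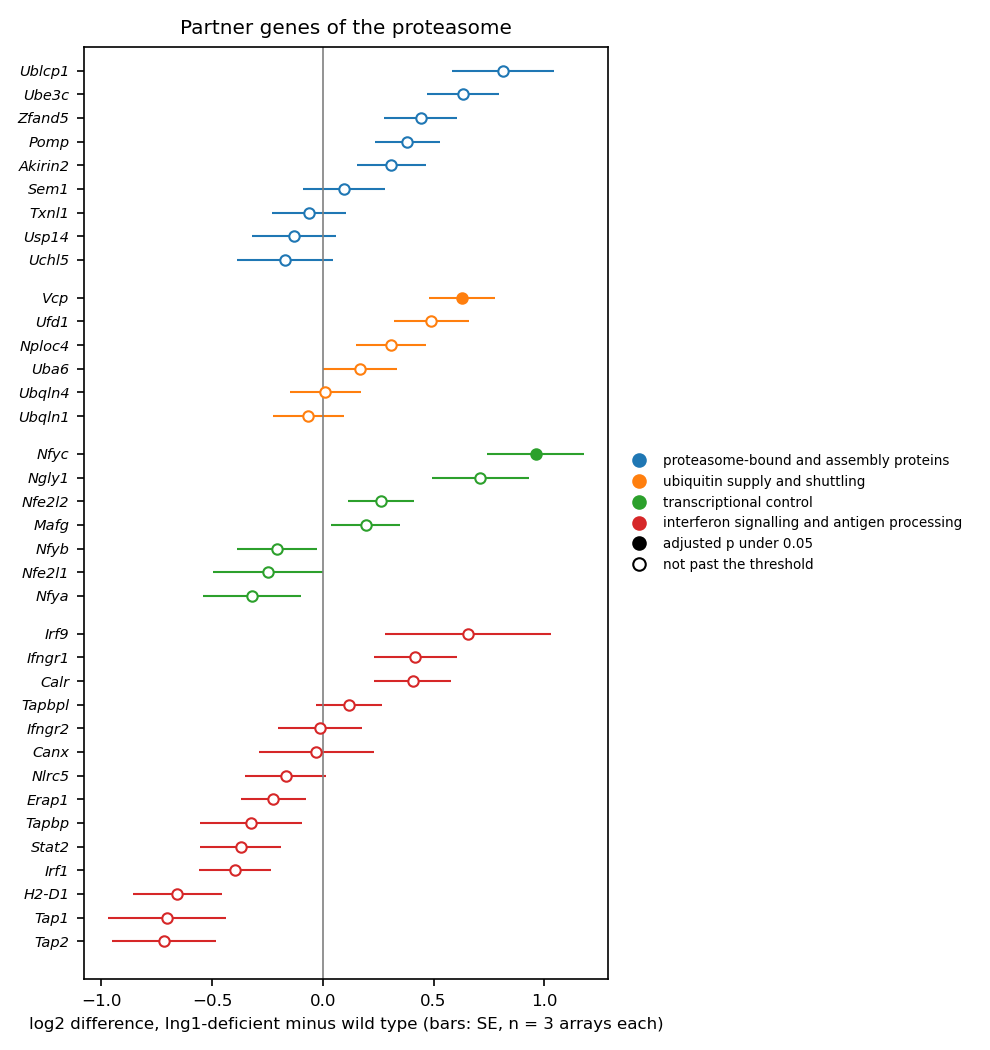
Log2 difference, Ing1-deficient minus wild type (x axis, with SE bars, n = 3 arrays each), of the tested genes of the 4 partner lists. Filled points are Vcp and Nfyc, the genes with an adjusted p under 0.05. Of the 14 interferon and antigen processing genes 10 lie left of zero, with Ifngr2 and Canx close to it.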

How the data were processed

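Array data of 6 fibroblast cultures, 3 per genotype, were used. Per the file headers, the authors quantified spots with CodeLink Expression Analysis 4.1.0.29054, and per the labels slides were read on a GenePix scanner and values median normalized. The deposited normalized intensity (linear scale) equals spot mean minus local background median, divided by the array's median, as worked out from the values, and 217362 of 217362 values of the series table equal the scanner tables. The probes' genome build is not given in the sources used here.

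Masked spots (105 to 177 per array) were treated as missing and the 1260 control spots left out. Intensities under 0.57 were set to 0.57, which understates differences of dim probes, and log2 values were fitted by genotype in limma 3.58.1 (R 4.3.3), using lmFit, eBayes and two-sided p-values. A probe was tested, as 19575 were, if flagged good on every array of either genotype, with Benjamini-Hochberg adjustment over all of them and a threshold of 0.05. The fit was tested on simulated data, drawn independently for each probe and array. Those data hold no shift shared by many probes of an array, so they cannot show how such shifts affect the calls. A gene is its tested probe with the highest mean, and ± after a log2 difference is the fit's standard error. The 3 arrays per genotype limit the precision.

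Symbols came from the platform annotation (21615 probes with 1 symbol, 681 with several, 12671 with none), of which 21487 were matched to RefSeq, assembly GRCm38.p6. Named were the catalytic and immunoproteasome genes, every member past the threshold, the extremes and lowest p of each class, untested members and those with probes of opposite sign, Psmc3ip, Ing1, and partner genes past the threshold or else the 2 of lowest p. The members, classes, partner lists and markers were chosen with earlier results of these data known. A planned promoter motif is not reported here.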

Additional observations from a re-analysis of the deposited data

How the results depend on the processing

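The 3 calls among 42 proteasome genes depended on the processing. The count was 13 with array weights, but 24.1% of all tested probes passed there, against 6.57% in the main fit. It was 6 with a variance trend and robust fitting (7.51% of all probes) and 5 with a good flag required on all 6 arrays (6.93%). It was 4 after normexp (2.94%) and 3 when a gene's probes were averaged (6.28%). It was 1 after quantile normalization (3.77%), after cyclic loess (3.83%) or with a floor of 0.01 (1.40%). It was also 1 with a floor of 1.14 (0.976%), where the 1 call was Psmd14. With no filter on flags it was 0 by limma (15 at an unadjusted p under 0.05), with 20 calls over all probes. The methods' t-test with a ratio over 2 or under 0.5 gave 1, and 0 after Benjamini-Hochberg adjustment (13 unadjusted). With the leading letter as a random block it was 35, of which 3 lower, but 65.9% of all probes passed and the estimated correlation was −0.8858. Leaving out 1 array gave 0 to 3, with 0.0255% to 13.9% of all probes passing. The median difference was 0.20 to 0.40 over these settings, none of which turned a called direction. Psmd6 passed in 9 of 11 alternatives, Psmc5 in 6 and Psmc4 in 5, and among partner genes Vcp passed in 6 and Nfyc in 5. Class medians moved most for the beta ring (0.08 without C4), the activators (0.06 with probes averaged) and the near-floor Psma8 (0.01 with a floor of 1.14), and Psmb8 gave −0.40 to 0.02. No paired analysis was possible because the labels do not say which cultures share a litter. A block for slide or scan date was not run, since each array has its own slide and the headers give no scan date. Signal near background left Psmb9, Psmb11 and Psmf1 untested, and masking Psmd3.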
